A study of Mus musculus with 150 samples.

Results

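Endothelins are small vasoactive peptides, and tissue factor is the membrane receptor that starts blood coagulation. The 7 genes described here are the endothelin genes Edn1, Edn2 and Edn3, the endothelin-converting enzyme gene Ece1, the tissue factor gene F3, and Tfpi and Thbd, which encode inhibitors of coagulation. All 7 had a row in the bulk table of 24341 rows and in both single-cell tables, which list 31175 genes each. Edn2 and F3 were selected on their bulk FPKM levels, which were higher in the knockout libraries, and the other 5 for their place in the same pathways. The bulk difference of Edn2 and F3 is therefore given as a description, with no test.

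The study asked how airway epithelial progenitors of the mouse lung behave with and without the tumour suppressor p53 (gene Trp53). The 6 bulk libraries, 3 per genotype, came from mice of 8 to 12 weeks that carried Scgb1a1-CreERTM, a tamoxifen-induced recombinase driven by a club cell promoter, and the Rosa26-mT/mG reporter. The wild-type mice were p53+/+ and the knockout mice p53flox/flox, and cells positive for GFP and EpCAM and negative for CD31, CD34, CD45 and 7AAD were sorted. The titles give day 30 and the protocol 70 days after tamoxifen. The genotype label of the knockout reads p53-/-, so a deletion in every cell and one induced by Cre are both named. For the single cells, captured on 1 C1 chip per genotype, the labels give the genotypes wild type and p53-/- and tamoxifen at 250 mg/kg. Whether these cells were fresh or cultured, and from how many animals, is not stated in the labels. Nothing says that the bulk libraries came from separate animals, so the p-values below measure the spread between libraries, which may be technical.

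Endothelin precursors are cut to active peptides by membrane metalloproteases, of which ECE1 is the best known, and the peptides act on the receptors EDNRA and EDNRB to constrict vessels and airways. Tissue factor binds coagulation factor VII, and this complex activates factor X and leads to thrombin. TFPI blocks the complex, and thrombomodulin, the product of Thbd, turns thrombin towards the activation of protein C, an anticoagulant. Tissue factor is known in epithelia that border the environment, where it is held to act as a haemostatic envelope.

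Trp53 was measured first as a check of the labels. In bulk its FPKM (fragments scaled by transcript length and library size) was 16.6, 22.2 and 21.7 in wild-type replicates 1, 5 and 6 and 8.63, 9.98 and 7.56 in knockout replicates 7, 8 and 10. The bulk groups did not overlap and were ordered as labelled (log2 fold change -1.12, SE 0.149, limma adjusted p = 0.144). In the single cells the share with Trp53 went the other way. It was found in 4 wild-type cells out of 66 and, among the cells labelled knockout, in 16 out of 61. Found here means a TPM (transcripts scaled to a fixed sum per cell) of 1 or more. At any TPM above 0 it was in 12 and 19 cells. Its mean was 13.2 and 37.6 TPM over all cells, and 1 cell carried 44.9% of the latter sum. In the club-dominant cells defined below the means were 17.8 and 16.5 TPM. Of 9486 genes, 77.6% were found in a larger share of the cells labelled knockout. The knockout chip is therefore called by its label throughout. Wild-type replicate 1 stood apart in bulk, with a mean log2(FPKM + 1) of 10.1 over the club list against 11.2 to 11.6 in the other 5 libraries, and of 9.17 over the alveolar type 2 list against 7.18 to 7.97. Its values are shown beside those of the others, and the log2 fold changes of Trp53 and of the tested members are given with and without it. For Trp53 it was -1.25 without that library (limma adjusted p = 0.00982).

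The 250 bases before the transcription start of F3 and of Edn2 are shown because these are the members whose bulk groups did not overlap. F3 starts at chr3:121723537 and Edn2 at chr4:120161206, both on the plus strand. The windows are chr3:121723287-121723536 and chr4:120160956-120161205 of GRCm38.p6, from RefSeq, 5′ to 3′. Capitals mark the motifs searched on both strands: AP-1 (TGANTCA), GC box (GGGCGG), TEAD (CATTCC), an E-box (CACGTG) and the p53 half-site.
F3: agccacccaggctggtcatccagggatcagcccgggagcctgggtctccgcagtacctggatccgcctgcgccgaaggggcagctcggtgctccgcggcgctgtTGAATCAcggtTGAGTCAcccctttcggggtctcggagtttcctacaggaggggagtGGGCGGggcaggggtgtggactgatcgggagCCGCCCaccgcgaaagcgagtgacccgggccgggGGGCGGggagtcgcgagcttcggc
Edn2: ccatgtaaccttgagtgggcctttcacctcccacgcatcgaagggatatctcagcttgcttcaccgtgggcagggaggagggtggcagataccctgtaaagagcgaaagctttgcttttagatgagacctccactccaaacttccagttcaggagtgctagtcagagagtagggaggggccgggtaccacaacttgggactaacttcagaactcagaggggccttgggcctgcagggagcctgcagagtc
The F3 window held an AP-1 match that begins 146 bases before the start and another at 135, and 3 GC boxes, at 89, 58 and 24 bases, the middle one on the minus strand. None of these matches overlapped another. Of 32851 windows of this length, 6.75% held an AP-1 match and 0.338% held 2 or more, while 32.7% held a GC box and 16.7% held 2 or more. No p53 half-site was in the F3 window, and 7.13% of all windows held one. The Edn2 window held 0 matches to any of the 5 motifs, of which TEAD and the E-box were in 12.6% and 6.02% of windows. The table of windows matched 6 of the 7 members (not Thbd). These matches describe the letters only, and no binding was measured. The deposited locus of Edn2 begins at chr4:120161424 and so does not reach this start.

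The endothelin ligands differed from each other in level and in how they stood by genotype. Edn2 had the largest difference of the 7 genes, with FPKM of 1.45, 2.96 and 2.79 in the wild type and 16.3, 32.3 and 15.6 in the knockout. Every knockout library was above every wild-type library, and knockout replicate 8 was highest. The means were 2.399 ± 0.827 and 21.4 ± 9.43 FPKM (SD, n = 3 each), a ratio of 8.91, with a log2 fold change of 2.67 (SE 0.312) on log2(FPKM + 1). The added 1 makes this fold change smaller than the ratio for genes of low level. Without wild-type replicate 1 the log2 fold change was 2.45.

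Edn1, the endothelin of vascular endothelium, was low, at 0.373, 0.501 and 0.501 FPKM in the wild type and 0.499, 1.40 and 1.09 in the knockout. Knockout replicate 7 lay among the wild-type values, so the groups overlapped. Edn1 did not reach an FPKM of 1 in 3 libraries and was not tested. An antisense gene, Gm47118, overlaps Edn1, and since the counting is not stated to use strand, reads of such pairs cannot be told apart.

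Edn3, the ligand that acts through EDNRB in neural crest development, was at 3.48, 4.38 and 4.14 FPKM in the wild type and 4.76, 2.77 and 1.97 in the knockout. The knockout values lay on both sides of the wild-type range. The log2 fold change was -0.31 (SE 0.245, limma adjusted p = 0.631), and it ranged from -0.58 to -0.10 when single libraries were left out, with -0.39 when wild-type replicate 1 was out, -0.58 for knockout replicate 7 and -0.10 for knockout replicate 10.

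Ece1 was among the highest of the 7 in every library, at 55.8, 60.3 and 52.9 FPKM in the wild type and 45.1, 53.5 and 46.9 in the knockout. The groups overlapped through knockout replicate 8, and the log2 fold change was -0.21 (SE 0.107, limma adjusted p = 0.438), or -0.22 without wild-type replicate 1. The antisense gene Gm13012 overlaps Ece1, with the same limit on strand.

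F3 was at 45.1, 56.1 and 63.9 FPKM in the wild type and 129, 130.5 and 173 in the knockout. The lowest knockout library was above the highest wild-type library, so the groups did not overlap. The means were 55.1 ± 9.45 and 144 ± 25.2 FPKM (SD, n = 3 each), a ratio of 2.62, and the log2 fold change was 1.37 (SE 0.177), or 1.24 without wild-type replicate 1.

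The inhibitors were low. Tfpi was at 0.247, 0.315 and 0.334 FPKM in the wild type and 0.252, 0.203 and 0.242 in the knockout, with overlapping groups and no test. Thbd was at 2.73, 1.69 and 0.496 FPKM in the wild type and 1.22, 0.799 and 0.400 in the knockout. The wild-type libraries of Thbd spread over a wider range than the knockout libraries and overlapped them, with a log2 fold change of -0.48 (SE 0.351, limma adjusted p = 0.607). Single libraries moved this value: it was -0.18 without wild-type replicate 1, -0.31 without knockout replicate 10 and -0.84 without wild-type replicate 6.

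**Figure D1:**
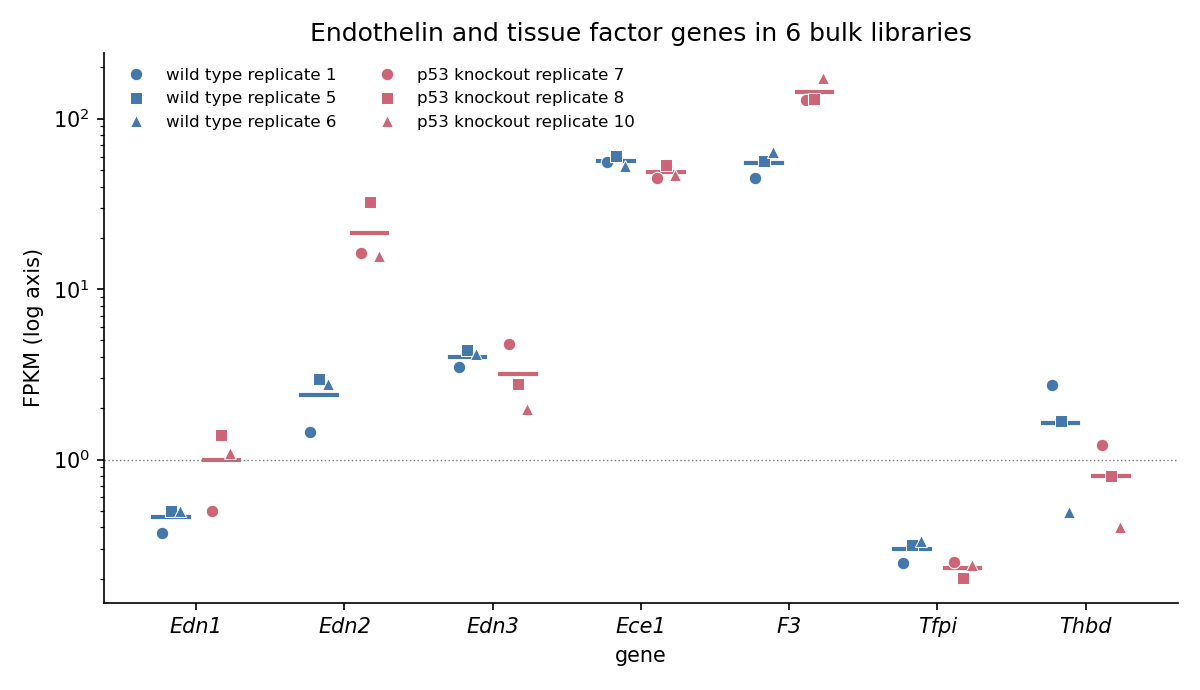
FPKM (log axis) of the 7 genes in the 6 bulk libraries; each symbol is a library, bars are group means and the dotted line is an FPKM of 1. Edn2 and F3 are the genes whose knockout libraries all lie above the wild-type libraries, at 15.6 to 32.3 and 129 to 173 FPKM.

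In order of mean FPKM the wild-type libraries had Ece1 (56.3), F3 (55.1), Edn3 (4.00), Edn2 (2.399), Thbd (1.64), Edn1 (0.458) and Tfpi (0.299). Ece1 and F3 overlapped, as did Edn2 and Thbd, and Thbd and Edn1. The knockout libraries had F3 (144), Ece1 (48.5), Edn2 (21.4), Edn3 (3.17), Edn1 (0.999), Thbd (0.805) and Tfpi (0.232). Here Edn1 and Thbd were the neighbours that overlapped. Edn2 thus stood below Edn3 in each wild-type library and above it in each knockout library.

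Of the 7 members, 5 passed the filter on low values. Of the 3 among these that were not chosen on this contrast (Edn3, Ece1 and Thbd), 0 passed an adjusted p of 0.05 in limma, against 1 of 11957 genes (0.00836%), a lower one; 1566 genes had an unadjusted p under 0.05. Edn2 and F3 were the 2 members whose groups did not overlap with the knockout higher, a pattern in 1081 of all tested genes (9.04%), and 0 members had it with the knockout lower, against 1223 genes (10.2%). Since the choice of members used this contrast, nothing is read from these shares. The median log2 fold change was -0.21 over the 5 members and 0.01 over all tested genes. Without wild-type replicate 1, 408 genes passed, and with array weights 913. No call is read for Edn2 and F3, since this contrast chose them.

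Markers of other cells also differed between the bulk libraries. The mean log2(FPKM + 1) over 12 ciliated genes was 3.75 to 4.49 in the knockout, while wild-type replicates 1, 5 and 6 had 3.94, 2.57 and 2.42. The 9 leukocyte genes were at 4.42 to 4.62 in the wild type and 3.45 to 3.95 in the knockout. Of these, Cd74 was also found in 47 wild-type single cells and 44 labelled knockout, and Lcp1 in 27 and 38. Ptprc and Cd52 were in none of these cells, and the rest in few. The 10 measured alveolar type 2 genes were at 7.96 to 9.17 in the wild type and 7.18 to 7.62 in the knockout. The 16 immediate early and stress genes overlapped, at 6.61 to 6.74 and 6.47 to 6.87. The 7 goblet genes overlapped, at 2.70 to 5.17 and 4.36 to 5.61. Over 11 endothelial genes the ranges were 1.49 to 1.64 and 1.22 to 1.29. Of these, Kdr was at 52.03 to 97.2 FPKM, Esam at 11.6 to 65.1 and Egfl7 at 0.451 to 4.35, while Pecam1, Cdh5, Tie1, Emcn and Erg were at most at 0.557, 0.258, 0.180, 0.131 and 0.0268 FPKM in any library. The platelet gene Pf4 was at 4.42 to 6.26 FPKM in the wild type and 2.57 to 3.65 in the knockout, and the other 4 platelet genes were at or under 0.350 in every library. The part of these cells in the values of Edn2, F3 and Thbd was not tested. In bulk, more cells that express a gene and more RNA per cell cannot be told apart.

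The single cells show which cells held these transcripts. After wells with a debris or valve remark and cells under 1000 detected genes were left out, 66 cells remained on the wild-type chip and 61 on the chip labelled knockout. A cell was called club-dominant where its mean log2(TPM + 1) over 12 club genes was above that over 12 alveolar type 2 genes, and alveolar-type-2-dominant otherwise. Such a class is a range on a score and not a cell type, and 2 cells of the wild-type chip and 8 of the other lay within 1 log2 unit of the cut. This gave 49 club-dominant cells in each genotype, and 17 and 12 alveolar-type-2-dominant cells. Each genotype is 1 sample and its table was normalized separately, so no test is given, and the exact binomial intervals of shares and the Newcombe intervals of differences, both at 95%, cover counting error only. Cells labelled knockout had more detected genes (median 3580 against 3130.5) and less of their TPM in ERCC spike-in RNA (6.28% against 13.2%). The share of cells with a gene at a TPM of at least 1 was higher in the cells labelled knockout for 77.6% of 9486 genes, with a median difference of 6.23 percentage points.

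On the wild-type chip F3 was found in 22 of 66 cells (33.3%, 22.2% to 46.01%), and on the chip labelled knockout in 31 of 61 (50.8%, 37.7% to 63.9%). The difference of 17.5 percentage points had an interval of 0.354 to 33.3. Mean log2(TPM + 1) was higher by 1.31, and 8.03% of the 9486 genes were higher by at least 1. The median over all genes was 0.25. The direction is that of the bulk libraries, although the share of cells with Trp53 goes against the label. A higher share in cells labelled knockout was also seen for 77.6% of the 9486 genes. In club-dominant cells it was seen for 71.9% of 10133 genes. Nothing is therefore read from the shared direction.

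All but 1 of the cells with F3 were club-dominant. F3 was found in 21 of 49 wild-type club-dominant cells (42.9%, 28.8% to 57.8%) and 31 of 49 labelled knockout (63.3%, 48.3% to 76.6%). Among club-dominant cells F3 ran from 0 to 471 TPM with a median of 0.29 in the wild type, and from 0 to 582 TPM with a median of 16.4 in those labelled knockout. The ranges overlapped over nearly their whole length, and both genotypes held cells with no F3. The mean was 45.5 TPM in the wild type and 90.4 TPM in cells labelled knockout. Their shares differed by 20.4 points (0.700 to 38.03) and mean log2(TPM + 1) by 1.62, and 7.5% of 10133 genes were higher by at least 1. The intervals of the F3 difference took in 0 when any TPM above 0 was counted (11.6 points over all cells and 12.2 in club-dominant cells), in cells with at least 2000 genes (13.9 and 16.9) and when TPM was rescaled without ERCC (15.97 and 18.4). Goblet markers moved with this comparison: the median of their mean log2(TPM + 1) was 0.0679 in wild-type club-dominant cells and 3.46 in those labelled knockout. Over all kept cells Muc5b was in 20 and 32, Tff2 in 20 and 30, Agr2 in 11 and 27, Fcgbp in 7 and 16, Foxa3 in 7 and 11, Muc5ac in 2 and 9, and Spdef in 8 and 7, wild type first. Their part in the F3 difference was not tested.

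Among alveolar-type-2-dominant cells F3 was found in 1 of 17 wild-type cells, at 429.59 TPM, and in 0 of 12 labelled knockout. The exact interval of the latter allows a share of up to 26.5%. The club-dominant share exceeded the alveolar-type-2-dominant share by 37.0 points (12.3 to 51.7) in the wild type and by 63.3 points (35.3 to 75.3) in cells labelled knockout. Mean log2(TPM + 1) of F3 was higher in club-dominant cells by 1.81 and 3.94, where 10.1% of 9714 and 10.6% of 10255 genes were higher by at least 1. Depth moved with this split, with median gene numbers of 3154 and 2633 in wild-type club-dominant and alveolar-type-2-dominant cells and of 3751 and 3103 in those labelled knockout. These intervals lay above 0 under all 7 alternatives. Whether the club margin differed between the genotypes was not tested.

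**Figure D2:**
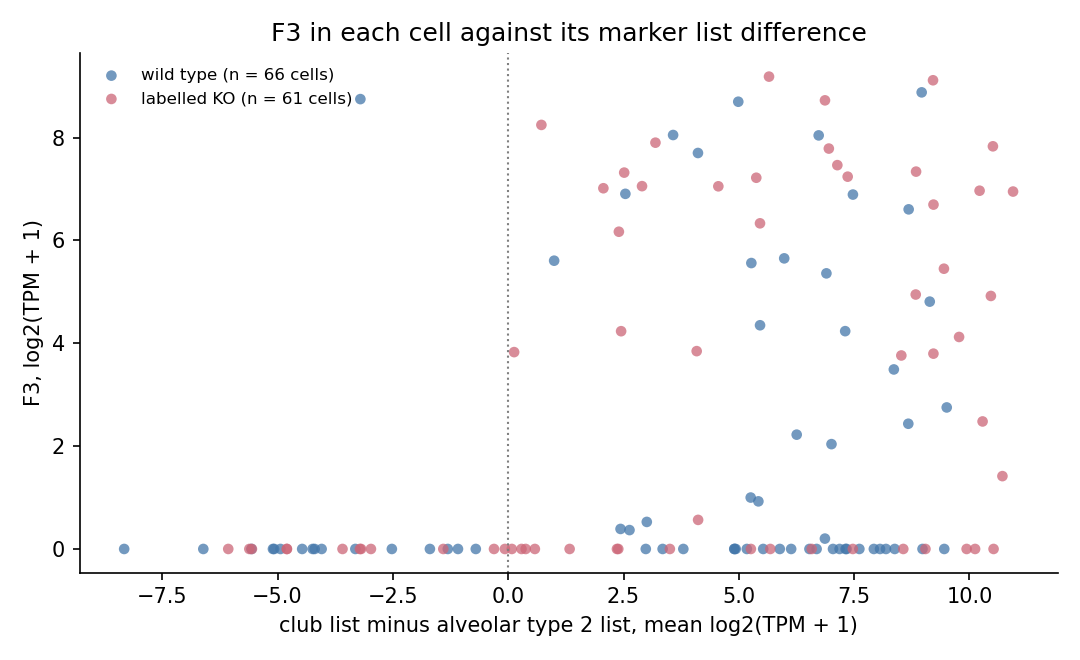
F3 as log2(TPM + 1) in each kept cell, 66 wild type and 61 labelled knockout (KO), against the club list minus the alveolar type 2 list; the dotted line is the cut between the classes. Left of the cut 1 wild-type cell holds F3, and right of it cells with F3 lie over the whole range of the score.

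F3 in club-dominant cells was also compared within ranges of the number of genes detected. From 1000 to under 3000 genes, F3 was in 6 of 22 cells of the wild type and 5 of 9 of those labelled knockout. From 3000 to under 4000 genes it was in 9 of 20 (45.0%) and 12 of 22 (54.5%), with mean levels of 23.8 and 82.2 TPM. At 4000 genes or more it was in 6 of 7 (85.7%) and 14 of 18 (77.8%), with means of 115 and 99.1 TPM. The direction thus turned in the deepest cells, of which only 7 were wild type. The exact intervals of these shares, 42.1% to 99.6% and 52.4% to 93.6%, overlapped widely. Those of the other ranges of gene number overlapped as well. Whether the genotype difference varied with gene number was not tested.

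Club-dominant cells were also split by Scgb3a1, a secretoglobin found in a subset of club cells. The split was at a TPM of 1. Cells with traces, such as 1.03 TPM (labelled knockout) and 1.49 TPM (wild type), thus stand with cells of up to 71973.57 TPM. With Scgb3a1, F3 was held by 15 of 35 in the wild type and 27 of 41 in those labelled knockout, a difference of 22.997 points (0.649 to 42.5). That interval took in 0 when any TPM above 0 was counted (17.3 points, -4.76 to 37.3) and in cells with at least 2000 genes (22.5 points, -0.704 to 42.8). In both genotypes goblet markers were higher with Scgb3a1 than without, with medians of 1.21 and 0 in the wild type and of 3.76 and 0 in cells labelled knockout. Without it, 6 of 14 and 4 of 8 held F3. Within the wild type both shares were 42.9%, with a difference of 0 (interval -28.7 to 26.95 points). Within cells labelled knockout the difference was 15.9 points (-16.5 to 46.99).

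Club-dominant cells with F3 differed from those without in other measures. In the wild type their median immediate early and stress score was 4.68 against 3.12 (mean log2(TPM + 1)), and their median gene number 3455 against 2864. In cells labelled knockout the scores were 4.43 and 4.06, and the gene numbers 3894 and 3512.5. The median Sftpc level of cells labelled knockout was 30.9 TPM where F3 was found and 36364 TPM where it was not, while in the wild type it was 447 and 80.4 TPM. Median Scgb3a1 in cells labelled knockout was 22529 TPM with F3 and 640.6 TPM without, and in the wild type 72.4 and 54.1 TPM. The median club minus alveolar type 2 score was 7.14 and 4.69 in cells labelled knockout, and 6.73 and 6.33 in the wild type. The part of depth in these values was not tested.

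Ece1 was found in more cells than any other member. On the wild-type chip it was in 46 of 66 cells (69.7%, 57.1% to 80.4%), and on the other in 47 of 61 (77.0%, 64.5% to 86.8%). The difference of 7.35 points (-8.08 to 22.1) was near the median of all genes. The Ece1 difference depended on the setting. It turned to -4.69 points (-18.9 to 10.2) among cells with at least 2000 genes, and rose to 16.4 points (5.30 to 27.8) when any TPM above 0 was counted. In club-dominant cells it was 6.12 points (-10.7 to 22.5), and it was 12.2 points (0.995 to 24.7) at any TPM above 0, 20.4 points (1.14 to 37.7) at a TPM of at least 10 and -5.77 points with at least 2000 genes. Ece1 was found in both classes: in 36 of 49 and 39 of 49 club-dominant cells and in 10 of 17 and 8 of 12 alveolar-type-2-dominant cells, wild type first. In club-dominant cells its median level was 11.5 TPM (0 to 488) in the wild type and 91.8 TPM (0 to 543) in those labelled knockout. Mean log2(TPM + 1) was higher by 1.52 in the latter, where 7.5% of 10133 genes were higher by at least 1. In alveolar-type-2-dominant cells this difference was -0.18. By gene number, club-dominant shares were 54.5% and 44.4% under 3000 genes, 90.0% and 86.4% from there to under 4000, and 85.7% and 88.9% above. The mean levels there were 17.9 and 43.1, 96.0 and 100.2, and 64.04 and 137.9 TPM, wild type first. In bulk the same gene was at 56.3 and 48.5 FPKM, with the wild-type mean the higher.

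In cells labelled knockout, Ece1 was in 35 of 41 club-dominant cells with Scgb3a1 and 4 of 8 without, a difference of 35.4 points (3.72 to 64.9). The share was higher by 20 points or more in 12.2% of 11046 genes in this split. The Ece1 interval took in 0 when any TPM above 0 was counted (12.5 points, -0.865 to 47.1) and at a TPM of at least 10 (25.6 points, -6.56 to 55.985). In the wild type it was in 27 of 35 and 9 of 14, a difference of 12.9 points (-12.4 to 40.6). Ece1 and F3 were found together in 17 of 49 wild-type club-dominant cells and in 24 of 49 labelled knockout, and neither was found in 9 and 3. Of the same cells 36 and 39 held Ece1 and 21 and 31 held F3, wild type first. Whether Ece1 and F3 went together beyond these counts was not tested.

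**Figure D3:**
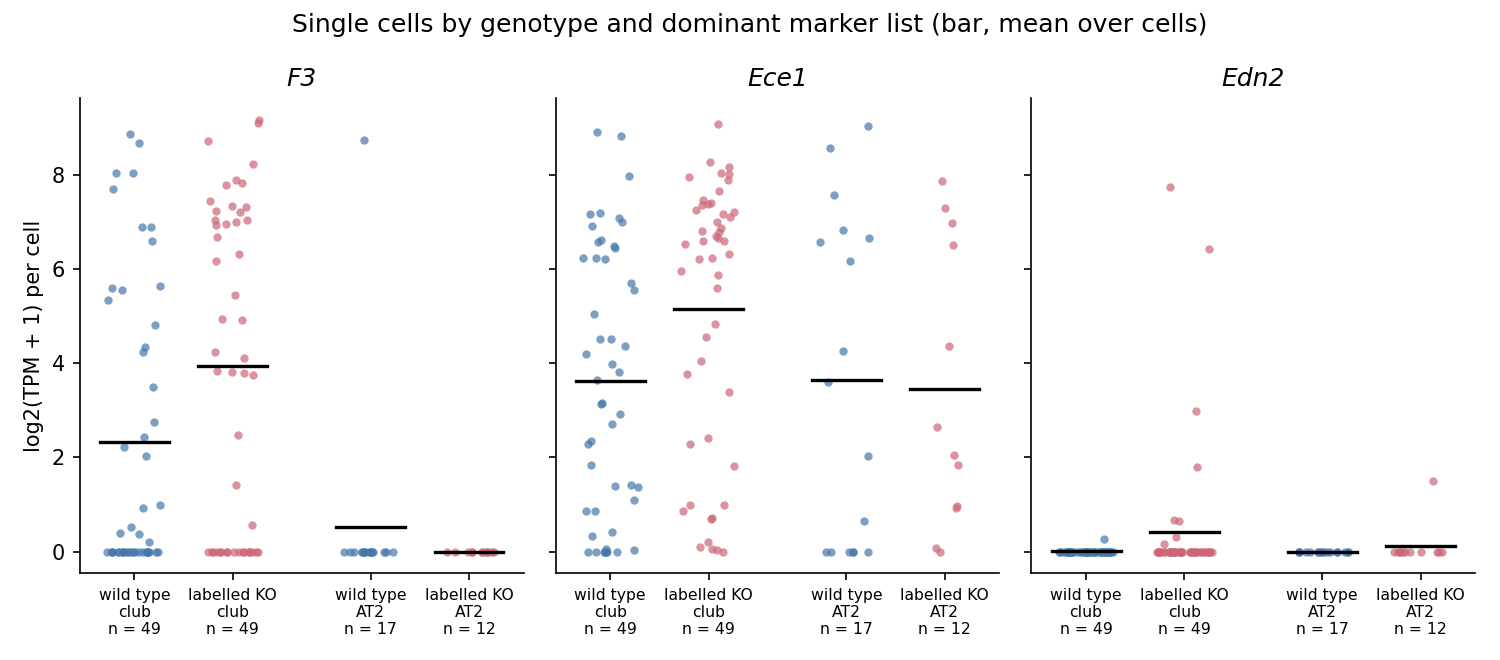
F3, Ece1 and Edn2 as log2(TPM + 1) in each kept cell, by genotype and by dominant marker list (club, or alveolar type 2 as AT2; KO, knockout); bars are means over cells. F3 is nearly empty in the AT2 columns, Ece1 fills all 4 columns, and Edn2 reaches 1 TPM in 5 cells labelled knockout.

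The 3 ligands were each found in few cells. Edn2 reached a TPM of 1 in 0 of the 66 cells of the wild-type chip, which allows a share of up to 5.44% (exact interval). Of the 61 labelled knockout it did so in 5 (8.20%, 2.72% to 18.1%). The difference was 8.20 points (0.998 to 17.8) over all cells and 8.16 points (-0.628 to 19.2) over club-dominant cells, and at a TPM of at least 10 it was 3.28 points (-2.71 to 11.2) over all cells. The 5 cells held 214.87, 85.22, 6.94, 2.47 and 1.84 TPM, and the highest carried 68.7% of all Edn2 TPM of that chip. The cell at 1.84 TPM was alveolar-type-2-dominant. All 4 club-dominant cells with Edn2 also held F3, Ece1 and Scgb3a1. Of the 49 club-dominant cells labelled knockout, 31 held F3, 39 Ece1 and 41 Scgb3a1. The 4 cells had 3946 to 5412 detected genes, against a median of 3751 in that class. The part of depth in the Edn2 values was not tested. Counting any TPM above 0, Edn2 was in 1 wild-type cell and 9 labelled knockout.

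On the wild-type chip Edn1 was found in 2 of 66 cells, at 152.23 and 20.12 TPM, and on the other in 3 of 61, at 17.16, 14.29 and 1.70 TPM. Edn3 was found in 1 of 66 and 3 of 61 cells, between 2.64 and 19.88 TPM, all of them club-dominant. The intervals of both differences held 0 (-6.15 to 10.7 and -3.93 to 12.1 points). Of the cells with an endothelin gene, 1 cell labelled knockout held more than 1 of the 3.

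The inhibitors were not found. Tfpi and Thbd reached a TPM of 1 in 0 of 127 cells, which allows a share of up to 2.86% (exact interval). Tfpi was at most at 0.49 TPM, and Thbd was listed at 0 in all cells. Their bulk levels of 0.203 to 0.334 and 0.400 to 2.73 FPKM therefore have no cell of these chips to set beside them. Of 11 endothelial markers 8 were also in no cell, Pecam1, Cdh5, Tie1, Emcn and Erg among them, while Kdr was in 21 and 14 cells and Esam in 6 and 9.

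**Figure D4:**
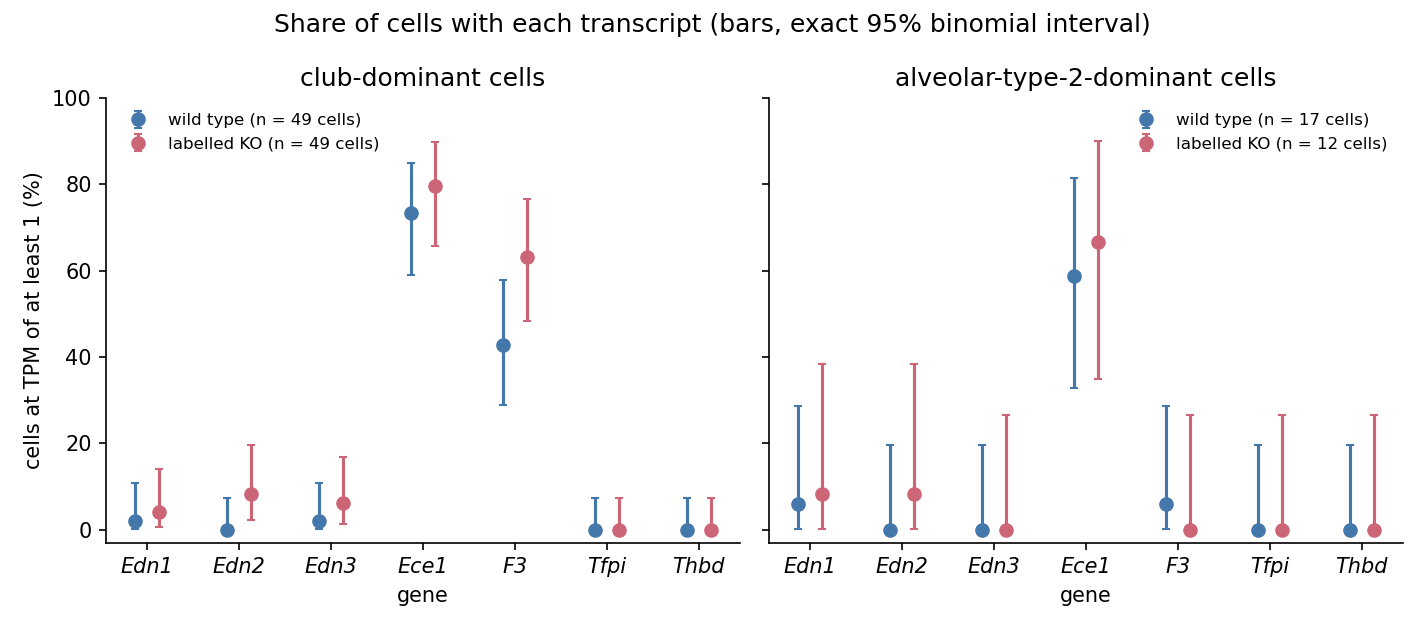
Percent of cells with a TPM of at least 1 for each of the 7 genes in club-dominant and alveolar-type-2-dominant cells of each genotype (KO, labelled knockout), with exact 95% binomial intervals. Ece1 stands above 50% in all 4 groups, F3 at 42.9% and 63.3% of club-dominant cells, and Tfpi and Thbd at 0.

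The wider pathways were read from a fixed list of 41 genes. In bulk 14 of them passed the filter, 9 with a positive and 5 with a negative log2 fold change (median 0.03). Of these, 0 passed an adjusted p of 0.05 in limma. An unadjusted limma p under 0.05 was found for 5 of the 14, and for 1566 of all 11957 tested genes. Groups did not overlap in 4 with the knockout higher (Ece2, F2, Procr, Plaur) and 3 with the knockout lower (Mme, F7, Fgg). These 4 and 3 of 14 genes stand beside 9.04% and 10.2% of all tested genes. Fgg reached an FPKM of 1 in wild-type libraries only, so the filter itself fixed its order. F2, F7 and Procr also reached it mainly in their higher group. Nothing is therefore read from these counts.

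In the endothelin axis, the receptor genes Ednra and Ednrb were at or under 0.361 and 0.234 FPKM in every library and were in 0 of 127 cells. Ece2, a second converting enzyme, was at 3.47, 5.38 and 6.45 FPKM in the wild type and 7.04, 8.76 and 10.6 in the knockout (log2 fold change 0.70, SE 0.222, limma adjusted p = 0.318). Mme, the protease neprilysin that degrades endothelins, was at 85.3, 36.8 and 33.7 FPKM in the wild type and 31.99, 24.95 and 23.8 in the knockout (-0.81, SE 0.343, limma adjusted p = 0.382). Its high wild-type value was that of replicate 1. In cells Mme was found in 20 of 66 and 30 of 61, the opposite order, and in 58.6% of alveolar-type-2-dominant against 33.7% of club-dominant cells.

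Among coagulation factors, F7, the partner of tissue factor, was at 2.27, 1.96 and 2.33 FPKM in the wild type and 1.16, 0.189 and 0.473 in the knockout. Its groups did not overlap (log2 fold change -1.03, SE 0.230, limma adjusted p = 0.290), and it was in 0 of 127 cells. Of the 14 factor genes, 3 were tested.

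Among the anticoagulants, Anxa5, the phospholipid-binding annexin A5, was the highest gene of the list at 169 to 203 FPKM, and its groups overlapped. Pros1, protein S, was at 11.7 to 14.2 FPKM and Serpind1, heparin cofactor II, at 3.74 to 7.72, both overlapping. Procr, the protein C receptor, was at 1.02, 0.232 and 0.241 FPKM in the wild type and 1.64, 2.91 and 1.2005 in the knockout (log2 fold change 0.96, SE 0.287, limma adjusted p = 0.312).

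Of the thrombin receptors, F2r was at 7.95 to 9.65 FPKM in the wild type and 9.497 to 14.7 in the knockout. Its groups overlapped by a narrow margin. Of the fibrinolysis genes, Plaur, the urokinase receptor, was at 4.67, 3.39 and 3.97 FPKM in the wild type and 6.53, 16.01 and 9.56 in the knockout (log2 fold change 1.15, SE 0.287, limma adjusted p = 0.308). Knockout replicate 8 was highest, as it was for Edn2. Serpine2, protease nexin 1, was at 56.3 to 67.1 and 53.1 to 59.8 FPKM. In the cells 21 of the 41 genes were found nowhere, and 3 were in at least 20% of the cells of a genotype (Anxa5, Serpine2 and Mme).

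**Figure D5:**
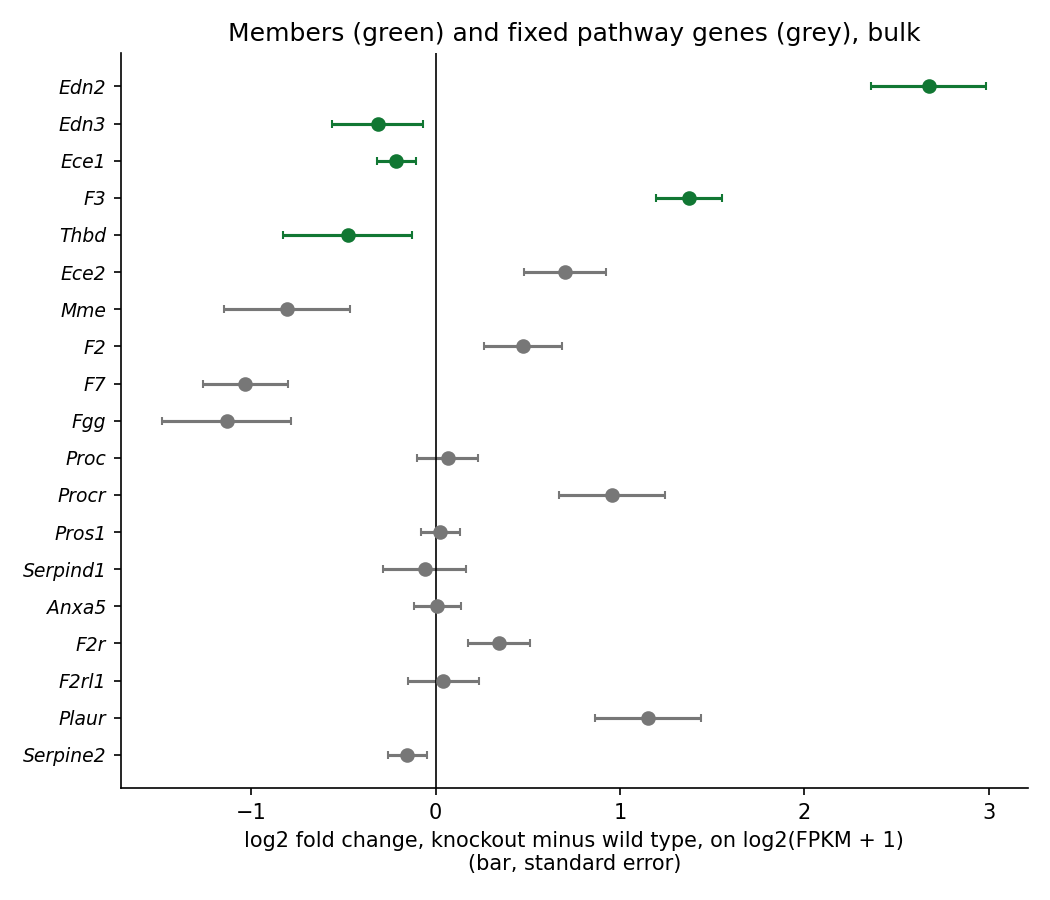
Log2 fold change (knockout minus wild type, on log2(FPKM + 1)) with its standard error for the 5 tested members (green) and the 14 tested pathway genes (grey) in bulk, 3 libraries per genotype. Edn2 at 2.67 and F3 at 1.37 lie farthest right, and Plaur at 1.15 is the highest of the pathway genes.

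The genes whose bulk pattern was most like each tested member were named by Pearson's r of log2(FPKM + 1) over the 6 libraries, among 8549 or 8550 genes with a mean FPKM of at least 5. For Edn2 they were Copg1 (r = 0.994), Kctd5 (0.992) and Lman1 (0.990), and F3 ranked at 69 with r = 0.927. For F3 they were Rrp8 (0.994), Nolc1 (0.992) and Pex7 (0.991). For Ece1 they were Fam134c (0.996), Galnt4 (0.993) and Adamts10 (0.985), for Edn3 Cpox (0.995), Fbxw8 (0.985) and Phactr2 (0.984), and for Thbd Gtf3c3 (0.999), Rbmx (0.993) and Rdx (0.992). With 6 libraries in 2 groups such values arise for many genes: 33 had an r above 0.95 with Edn2 and 43 with F3.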

How the data were processed

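The members and the marker and pathway lists were chosen with earlier results of these data known. FPKM values in bulk were made by the authors, who used Cufflinks after TopHat and Bowtie2 with the build mm10, per the submitters' processing notes; the lowest deposited value is 0.01, and 20 entries are marked in place of a value, 0 of them in members. The single-cell unit is TPM, deposited by the authors after Bowtie 1.1.1, RSEM 1.2.20 and the build GRCm38 (from the submitters' processing notes). Neither unit gives read depth, so no count test was used; the FPKM sums were 437710 to 678870.

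Bulk values were fitted as log2(FPKM + 1) with limma 3.58.1 (R 4.3.3; moderated variances with the trend and robust options; two-sided; Benjamini-Hochberg adjustment over 11957 genes). Genes entered where 3 libraries or more reached an FPKM of 1. The fit was also run on simulated data with the same spread for every gene and no outlying library. That run therefore says nothing of the fit with wild-type replicate 1. Cells needed 1000 genes at a TPM of at least 1, which left out 6 wild-type cells and 3 labelled knockout; 1 and 3 remark wells and 2 control wells were kept apart. A further 2 samples labelled knockout matched no column and are not analysed here. Wells with doublets were removed by inspection, per the labels' protocols, and no doublet caller was run. Named genes are the members, Trp53, pathway genes with a mean FPKM of at least 5 or found in at least 20% of the cells of a genotype, and the 3 genes most like each tested member. F2, F7, Fgg, Procr, Ednra and Ednrb fall outside that rule and were named after their values were seen. The alternatives were another pseudocount, filter, scaling, weighting and detection level, and each library left out.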

Additional observations from a re-analysis of the deposited data

Results flagged for a closer look

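Wells that no comparison used held some of these transcripts above the level of the negative control well, where Ece1 was at 0.14 TPM and the other 6 genes at 0. The wild-type well with a remark held 298.65 TPM of Ece1 and 2.48 TPM of Edn3. The 3 wells labelled knockout with a remark held 36.9, 3.14 and 446.86 TPM of Ece1 and 210.11, 3.23 and 53.59 TPM of F3. The positive control well of the knockout chip held 6.54 TPM of Ece1 and 27.72 TPM of F3. Edn2 stayed under 1 TPM in all 6 of these wells.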

How the results depend on the processing

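The bulk count of 1 gene past the threshold became 2 with a pseudocount of 0.1, 3 of 24329 with no filter on low values and 913 (654 higher, 259 lower) with array weights. Leaving out single libraries gave 1 to 408 genes: 408 (337 higher, 71 lower) without wild-type replicate 1, 3 without wild-type replicate 6 or knockout replicate 8, and 2 without knockout replicate 10. The cause was not tested. Edn2 and F3 were chosen on this contrast and have groups that do not overlap. Leaving out a library or changing the pseudocount could thus not turn their direction, which was kept under all 13 alternatives. Nothing is read from this for Edn2 and F3. Their log2 fold changes were 2.52 and 1.30 with array weights, and 2.35 to 2.85 and 1.24 to 1.49 with single libraries left out; that of Edn2 was 1.78 with a pseudocount of 5 and 3.08 with 0.1. No call is read for Edn2 or F3, which this contrast chose. Edn3, Ece1 and Thbd kept a negative log2 fold change and stayed short of the threshold under all 13. In cells, a pseudocount of 10 lowered the differences of mean log2 by construction, for F3 to 0.73 (all) and 0.93 (club-dominant) and for Ece1 to 0.74 and 1.01. With at least 2000 genes per cell Ece1 was at 0.47 and 0.89, and its share difference turned to -4.69 and -5.77 points. The F3 share difference ran from 11.6 to 21.9 points over all cells and from 12.2 to 26.5 in club-dominant cells. No paired analysis was possible because the bulk groups share no replicate numbers and each chip is 1 sample.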
